A study of Homo sapiens with 4 samples.

Results

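The comparison described here is the addition of 13cRA to doxazosin in CHP134 cells, an established human neuroblastoma line with amplified MYCN. It sets cells that received both drugs (13cRA at 5 µM and doxazosin at 10 µM) against cells that received doxazosin alone (10 µM), in each case for 24 h. Cells were assigned by the prefix of their column name and were kept if 500 or more genes were detected in them and no more than 25% of their counts were mitochondrial. This left 287 of 307 13cRA+doxazosin cells and 239 of 252 doxazosin cells, 526 of the 1197 cells kept over the 4 treatments. The other 2 treatments were 13cRA alone (5 µM) and the vehicle DMSO (0.04%), and they give the same drug addition without doxazosin. All of the groups are 1 line grown in the same medium, and each treatment is 1 library, dispensed on 1 nanowell chip after imaging for single live cells. There is therefore no replicate error. No test was made, and a difference between libraries cannot be told apart from a difference between treatments.

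13-cis retinoic acid (isotretinoin) is a retinoid used in the maintenance treatment of high-risk neuroblastoma, where retinoids slow growth and drive neuronal differentiation. It isomerises to all-trans retinoic acid, which binds the retinoic acid receptors RARA, RARB and RARG. These pair with the retinoid X receptors on direct repeats of a short half-site in DNA and exchange corepressors for coactivators. Classical targets include RARB itself and the genes that bind, store or break down retinoids. Doxazosin is a quinazoline that blocks alpha-1 adrenergic receptors and is prescribed for hypertension and prostate enlargement.

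The RARB promoter carries such a repeat and is shown because RARB is the receptor gene with the clearest difference in these cells. The window is RefSeq sequence of build GRCh38.p14, plus strand, chr3:25428163-25428262, and the capitals mark the 2 half-sites, which span bases -53 to -37 from the transcription start and are spaced by 5 bases.
RARB: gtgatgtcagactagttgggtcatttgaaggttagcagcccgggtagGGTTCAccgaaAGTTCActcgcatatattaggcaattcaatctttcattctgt
The search covered both strands of the RefSeq promoter windows for a direct repeat of any 2 half-sites, where a half-site is AGGTCA or the variant GGGTCA, or else AGTTCA or the variant GGTTCA, spaced by 1, 2 or 5 bases. A repeat with a spacing of 5 was found in 22 of 27305 promoters (0.0806%), and one with any of the 3 spacings in 70 (0.256%). Among the genes of the retinoid lists below, 46 of 58 had a promoter entry and 1, RARB, held a match. None of the 10 entries for the 15 highest genes and none of the 11 entries for the 15 lowest genes held one, which says only that these letters are not in these windows.

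The summed counts were 72192743 in 13cRA+doxazosin cells and 46171287 in doxazosin cells, with medians of 221558 and 171793 counts per cell. The median share of mitochondrial counts was 10.1% in 13cRA+doxazosin cells and 10.6% in doxazosin cells. Because depth differed, each cell was also thinned to 34000 counts for shares of cells and per-cell scores, which left 270 and 235 cells with medians of 4699 and 4786 detected genes. Most of the line's own markers were expressed. MYCN stood at 815 CPM (counts per 1000000 summed counts of the library) in 13cRA+doxazosin cells and 759 CPM in doxazosin cells, and the sympathoadrenal transcription factor GATA3 at 294 and 315 CPM. Of the 10 markers listed for the line, 8 had at least 10 CPM in 1 of the 2 libraries. In 13cRA+doxazosin cells 2 of these 8 were higher and 6 lower, with a median log2 difference of -0.18. The catecholamine enzymes TH and DBH were at or near 0, with 0 and 6 counts in 13cRA+doxazosin cells and 1 and 0 counts in doxazosin cells. The receptors that doxazosin blocks were barely seen: ADRA1A, ADRA1B and ADRA1D had 11, 3 and 1 counts in 13cRA+doxazosin cells and 1, 6 and 2 counts in doxazosin cells. Of the marker lists for other cell types, the Schwann cell, leukocyte and epithelial lists summed to at most 3.38 CPM in either library. The fibroblast list (77.3 CPM in 13cRA+doxazosin cells and 86.9 CPM in doxazosin cells) was almost entirely THY1 (68.4 and 74.9 CPM). The endothelial list summed to 14.5 and 6.06 CPM, most of it CLDN5 at 11.1 CPM in 13cRA+doxazosin cells. The leukocyte marker PTPRC (0.138 and 0.606 CPM) and the epithelial marker EPCAM (0.983 and 0.433 CPM) were near 0. The part of these markers in the results was not tested.

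The 2 libraries were alike at most genes and far apart at a small number. Over the 8061 genes with at least 10 CPM in 1 of the 2 libraries, the median log2 difference between 13cRA+doxazosin and doxazosin was -0.01 and the median size of a difference was 0.22. At least 2-fold higher in 13cRA+doxazosin cells were 227 genes (2.82%), and at least 2-fold lower were 138 genes (1.71%). Of the 227, 145 passed the 10 CPM minimum through the 13cRA+doxazosin library alone, and of the 138, 88 passed through the doxazosin library alone, so those genes had to differ. In many cases 1 cell held much of a gene's counts: with the cell of most counts left out for each gene in each library, an alternative added after seeing the data, 137 genes were at least 2-fold higher and 67 at least 2-fold lower. Minimums on level and share of cells and one direction across 3 measures left 4158 genes, from which the 15 highest and the 15 lowest are described below.

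**Figure D1:**
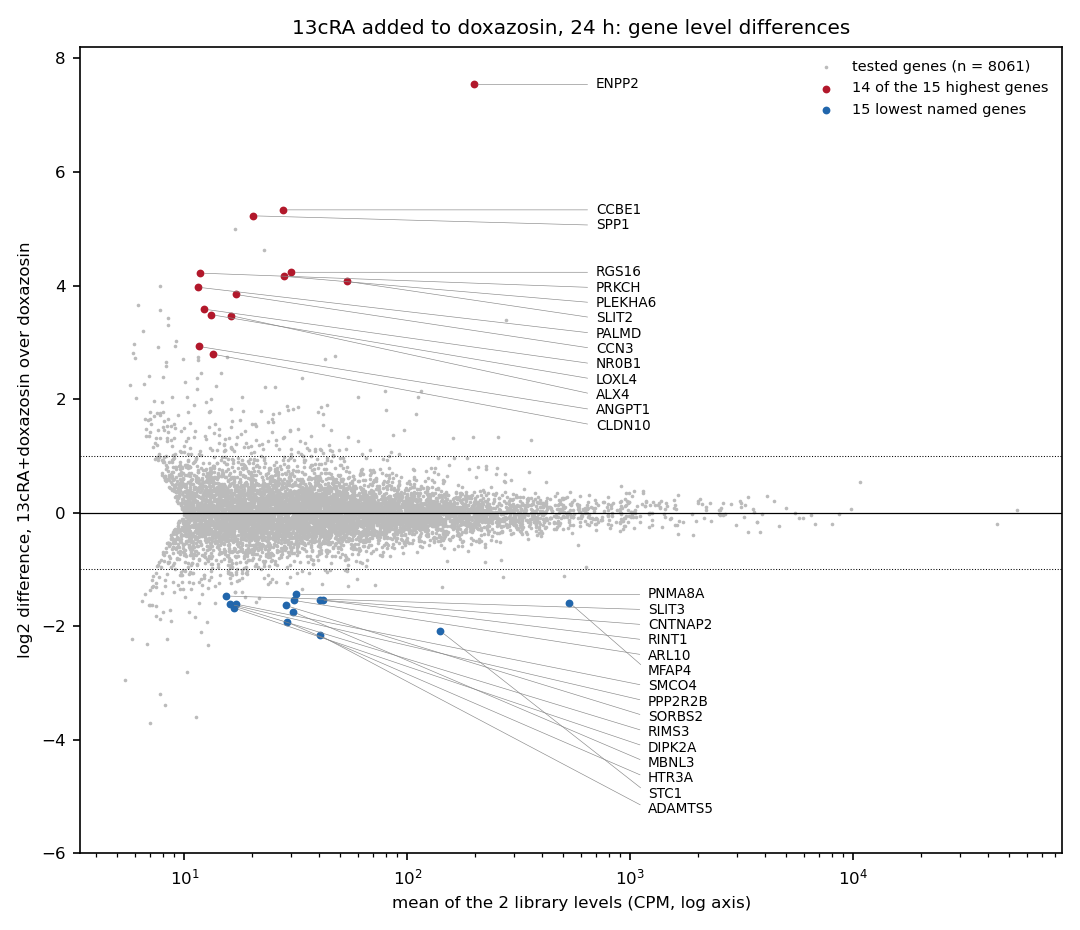
Each point is a tested gene, with the mean of its 2 library levels in CPM on a log axis and the log2 difference of 13cRA+doxazosin over doxazosin on the vertical axis; dotted lines mark 2-fold. ENPP2 stands alone at 7.54, the other 13 named higher genes lie between 2.79 and 5.33, and the 15 named lower genes lie between -2.16 and -1.44.

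Among the receptors and their partners, 8 of 11 tested members were higher in 13cRA+doxazosin cells and 3 were lower, beside 49% higher over all tested genes. Of the 11, 4 passed the 10 CPM minimum through the combination library alone and 1 through the doxazosin library alone, so their directions were set by the minimum. Of the 6 that passed in both libraries, 4 were higher. RARB, the retinoid-inducible receptor whose promoter is shown above, was at 27.6 CPM in 13cRA+doxazosin cells (95% Poisson interval 26.4 to 28.9) and at 3.27 CPM in doxazosin cells (2.77 to 3.84). RARB was counted in 20.4% of thinned 13cRA+doxazosin cells (exact binomial interval 15.7 to 25.7) and 3.40% of doxazosin cells (1.48 to 6.6). Before thinning the shares were 31.4% and 5.02%. RARG, the third receptor of the family, stood at 15.2 and 5.54 CPM. RARA, the broadly expressed receptor, was below the 10 CPM minimum at 7.98 and 5.09 CPM. The coactivator NCOA1 was lower, at 10.2 and 16.6 CPM. RXRA, the usual partner of the receptors, was at 18.3 CPM in 13cRA+doxazosin cells and 8.81 CPM in doxazosin cells, but 1 cell held 41.8% of its counts in the combination. With the 4 combination cells of over 9000 genes left out, its log2 difference was -0.05 in place of 0.97. Poisson intervals cover counting error only, because reads of amplified cDNA are not independent molecules, and binomial intervals cover only the sampling of cells.

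The genes that bind, carry and process retinoids showed the same direction. Of 21 members, 5 were tested, and 4 of these were higher, beside 49% higher over all tested genes. Of the 5, 1 passed the CPM minimum through the combination library alone and 1 through the doxazosin library alone, and the 3 that passed in both were higher. CRABP2, which delivers retinoic acid to its nuclear receptor, was at 47.8 CPM in 13cRA+doxazosin cells (46.2 to 49.4) and 16.6 CPM in doxazosin cells (15.4 to 17.8), and STRA6, the membrane transporter that takes up vitamin A, at 22.7 and 9.70 CPM. DHRS3, a retinaldehyde reductase, was scarce but differed in the same direction, with 163 counts in 13cRA+doxazosin cells and 6 in doxazosin cells. The retinoic acid hydroxylase CYP26A1, a strongly inducible target in many other cells, had no count in either library, which allows at most 0.0416 CPM in 13cRA+doxazosin cells and 0.065 CPM in doxazosin cells. CRABP1 had 3.46 and 1.82 CPM.

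Of the 29 retinoid response genes, 13 were tested: 9 were higher and 4 lower, with 6 at least 2-fold higher and 3 at least 2-fold lower, and their median log2 difference was 0.72 beside -0.01 over all tested genes. RARB, CRABP2 and STRA6 were among the 6, as was the neuron navigator NAV2 at a log2 difference of 1.07, named after its value was seen. Among the 3 lower ones were the Notch ligand relative DLK1 at 3.88 CPM in 13cRA+doxazosin cells and 20 CPM in doxazosin cells, and the immediate early factor EGR1 at 6.91 and 16.8 CPM. SOX4, a neural progenitor factor, was higher at 438 and 266 CPM. The receptor tyrosine kinase RET, which retinoids induce in other neuroblastoma lines, had 66 counts in 13cRA+doxazosin cells and 6 in doxazosin cells, a level under 1 CPM in both. In single cells, the retinoid response score (the mean of log2(CPM/10 + 1) over members) had a median of 0.915 in 13cRA+doxazosin cells and 0.664 in doxazosin cells, with SDs over cells of 0.207 and 0.211. Of the 13cRA+doxazosin cells, 90.4% (86.2 to 93.6) lay above the doxazosin median. HOXC4, a homeobox gene of a cluster that retinoids switch on along the body axis, was at 31.6 and 10.0 CPM. It was 1 of only 2 tested among 31 HOX genes, and the other, HOXA7, was slightly lower, with a log2 difference of -0.08.

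The largest difference was in ENPP2, which encodes autotaxin, the secreted enzyme that makes the lipid signal lysophosphatidic acid. ENPP2 was at 395 CPM in 13cRA+doxazosin cells (391 to 400.0) and 1.13 CPM in doxazosin cells (0.841 to 1.48), a log2 difference of 7.54. It was counted in 72.6% (66.9 to 77.8) of thinned 13cRA+doxazosin cells and 3.83% (1.77 to 7.14) of doxazosin cells (83.6% and 10.0% before thinning). Its level per cell in the combination ran from 0 at the 10th percentile to 158 CPM at the median and 903 CPM at the 90th. Most cells of the combination had it, at widely varying levels. Of the lysophosphatidic acid receptors, LPAR1 was at 19.6 and 18.7 CPM and LPAR2 was higher, at 20 and 12.6 CPM.

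Other leading genes encode secreted or matrix proteins. CCBE1, a secreted protein needed for lymphatic vessel growth, was at 55.0 CPM in 13cRA+doxazosin cells and 0.390 CPM in doxazosin cells, and was counted in 38.5% and 1.28% of cells. SPP1 (osteopontin, a phosphorylated matrix protein and integrin ligand) had 40.5 and 0.108 CPM. The guidance ligand SLIT2, which repels axons through ROBO receptors, was at 102 CPM (99.9 to 105) and 5.13 CPM (4.5 to 5.83), whereas its relative SLIT3 was lower, at 7.73 and 23.1 CPM. CCN3, a matricellular regulator of growth, was at 32.6 and 1.34 CPM. LOXL4, a lysyl oxidase that cross-links collagen, had 25 and 1.32 CPM, and ANGPT1, the ligand of the TIE2 receptor, 21.3 and 1.93 CPM. The matrix list as a whole did not share this direction: 9 of 15 tested members were higher and 6 lower, with a median of 0.10, and 5 of the 15 were tested through the combination library alone.

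A second group acts inside the cell. RGS16 and RGS8, which speed the shut-off of G protein signals, were at 58.1 and 33.6 CPM in 13cRA+doxazosin cells and at 2.14 and 0.0866 CPM in doxazosin cells, and RGS3 was at 21.5 and 8.75 CPM. These 3 passed the CPM minimum through the combination library alone. RGS2, the other tested member and the one that passed in both libraries, was at 55.7 and 40.1 CPM, a log2 difference of 0.46. For RGS8, 1 cell held 57.9% of the combination counts, and its level without that cell was 14.3 CPM. PRKCH, a protein kinase C isoform, had 23.3 and 0.303 CPM. NR0B1, the orphan nuclear receptor DAX1 of the adrenal and gonadal lineage, had 23.4 and 1.04 CPM, and the homeobox factor ALX4 had 30.5 and 1.84 CPM. Also among the leading genes were PLEKHA6 (54.1 and 2.08 CPM), the membrane-associated protein palmdelphin PALMD (22.5 and 0.498 CPM) and the tight junction protein CLDN10 (24.2 and 2.64 CPM). For each of the 15 highest genes the intervals of the 2 shares of cells were apart.

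**Figure D2:**
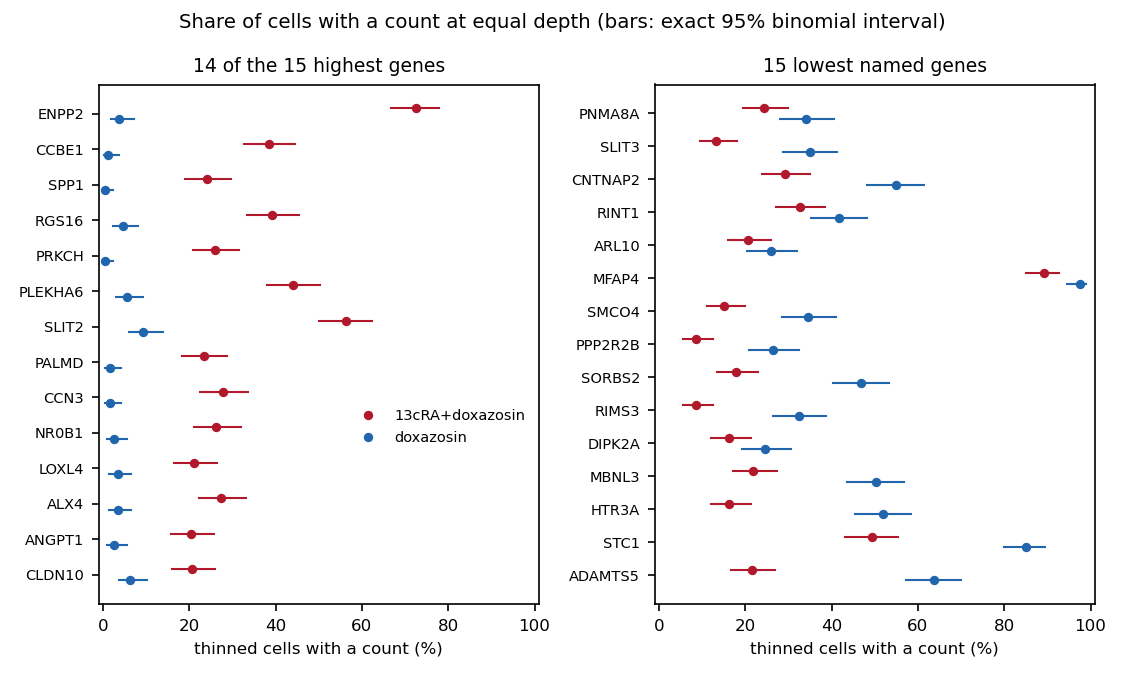
Each row is a named gene, and the points give the percent of cells with at least 1 count after thinning to 34000 counts in 13cRA+doxazosin cells (red, n = 270 cells) and doxazosin cells (blue, n = 235 cells), with exact 95% binomial intervals as bars. The direction of the shares was part of the naming rule. The 2 shares are apart for the 14 higher genes drawn, whereas for DIPK2A, ARL10, RINT1 and PNMA8A among the lowest they lie close together.

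The naming rule asked for a count in at least 20% of thinned cells of 1 library, which leaves out genes carried by few cells, so the spread of the leading genes over cells is a description. After thinning, the median 13cRA+doxazosin cell had counts for 6 of the 15 highest genes and the median doxazosin cell for 1. At least 5 of them were counted in 63.3% (57.3 to 69.1) of 13cRA+doxazosin cells and in 0 of 235 doxazosin cells, which allows up to 1.56% by the exact interval. No 13cRA+doxazosin cell lacked all 15 (0 of 270, up to 1.36%), while 54 doxazosin cells (23.0%) did. The genes were also chosen for the difference itself. The 15 lowest genes gave a broader overlap, with medians of 4 genes in 13cRA+doxazosin cells and 7 in doxazosin cells.

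**Figure D3:**
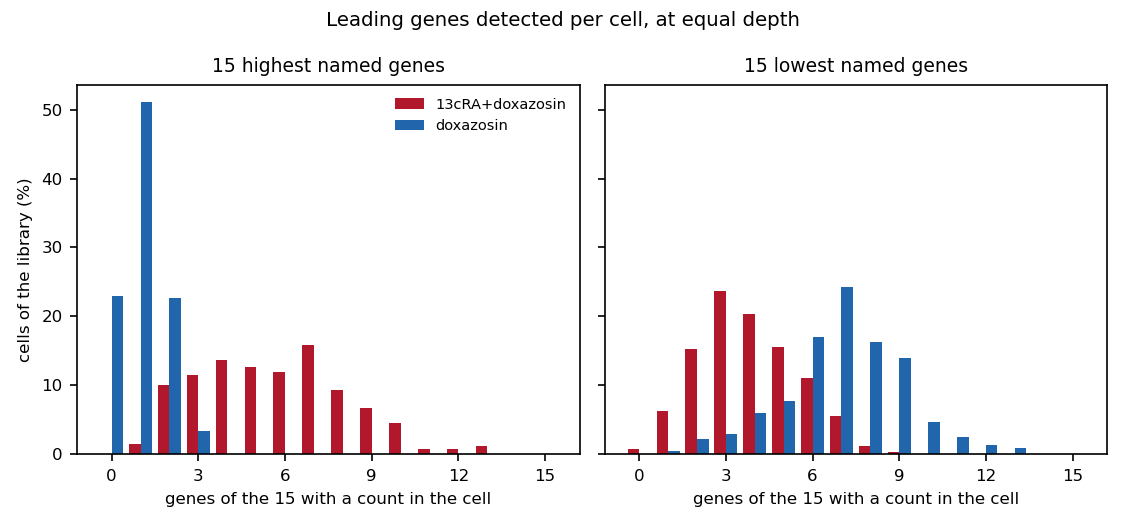
Bars give the percent of thinned cells of each library by the number of the 15 highest genes (left) or of the 15 lowest genes (right) with at least 1 count in the cell. On the left the 13cRA+doxazosin cells (red, n = 270) center on 6 genes and reach 13, and the doxazosin cells (blue, n = 235) do not go past 3; on the right the distributions overlap, with medians of 4 and 7.

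Genes of neuronal outgrowth did not share a direction. SCG2, a granin of dense-core secretory vesicles, was at 189 CPM in 13cRA+doxazosin cells (186 to 192) and 42.0 CPM in doxazosin cells (40.1 to 43.9), and was counted in 72.2% and 34.0% of cells. CHGB, another granin, was at 44.3 and 20.6 CPM, and the prohormone sorting granin SCG3 at 85.5 and 63.7 CPM, so that 5 of 6 tested granins and neuropeptides were higher. Galanin (GAL) was the lower one, at 11.5 and 18.6 CPM. CRMP1, a semaphorin signal mediator in growth cones, stood at 507 and 207 CPM, and GAP43, the growth cone membrane phosphoprotein, at 102 and 52.8 CPM. In contrast STMN2, the neuronal stathmin that destabilises microtubules, was at 158 CPM in 13cRA+doxazosin cells and 289 CPM in doxazosin cells. Over the 20 tested stathmin and growth cone genes, 6 were higher and 14 lower, with a median of -0.15. Over all tested genes 49% were higher and 51% lower. The neurofilaments divided in the same way. The medium and heavy chains NEFM (262 and 150 CPM) and NEFH (84.9 and 60.7 CPM) were higher in 13cRA+doxazosin cells, and the light chain NEFL (40.7 and 59.9 CPM) and peripherin PRPH (22.9 and 37.9 CPM) were lower.

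Transcription factors that define the noradrenergic state of neuroblastoma leaned lower, at 11 of 16 tested members, beside 51% lower over all tested genes. Their median was -0.12, and 3 were at least 2-fold lower. ISL1, a LIM homeobox factor of sympathetic neurons, was at 26.0 CPM in 13cRA+doxazosin cells and 49.3 CPM in doxazosin cells and was counted in 17.8% (13.4 to 22.9) and 52.3% (45.8 to 58.9) of cells. In the combination 1 cell held 46.7% of its counts, and the log2 difference was -1.70 without such cells, in place of -0.90. GATA2 was at 2.92 and 11.1 CPM, the LIM cofactor LMO4 at 14.9 and 34.5 CPM, and PHOX2A at 12.3 and 20.2 CPM. The core factors that are most abundant here differed little: GATA3 was at 294 and 315 CPM, HAND2 at 73.9 and 83.7 CPM and MYCN at 815 and 759 CPM. GCH1, which makes the cofactor for tyrosine hydroxylase, was at 11.8 and 26.2 CPM. MAOA, which breaks monoamines down, was at 21.1 and 10.4 CPM.

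Cell cycle genes were lower by small amounts but in large number. Of 43 tested S phase genes, 36 were lower in 13cRA+doxazosin cells and 7 higher, with a median log2 difference of -0.29, and none reached 2-fold. Over all tested genes 51% were lower. Under DESeq2 size factors 39 of the 43 were lower, beside 5066 of all 8061 tested genes. The replication licensing factor CDC6 was at 213 and 307 CPM and the exonuclease EXO1 at 62.7 and 93.7 CPM. The median S phase score was 2.74 in 13cRA+doxazosin cells and 3.06 in doxazosin cells, with SDs over cells of 0.874 and 0.813, so the 2 libraries overlapped, and 34.4% (28.8 to 40.4) of 13cRA+doxazosin cells lay above the doxazosin median. G2M genes were lower in 39 of 53 cases with a median of -0.10, among them cyclin B2 (CCNB2) at 140 and 211 CPM, while the centrosomal kinase NEK2 was higher at 67.4 and 48.6 CPM. Among G1 regulators, CDK6, a kinase that phosphorylates RB, was at 189 and 337 CPM and SKP2, which targets p27 for degradation, at 173 and 248 CPM. CDK4 was at 308 and 343 CPM and MKI67 at 99.6 and 110 CPM. The inhibitor p27 (CDKN1B) was at 67.0 and 48.3 CPM. For p21 (CDKN1A) the sum was lower, at 61.3 and 86.4 CPM, but 1 doxazosin cell held 41.9% of the counts. The log2 difference was 0.18 without such cells, in place of -0.49, and the thinned share was 42.2% in 13cRA+doxazosin cells and 33.2% in doxazosin cells, so its direction depends on the measure.

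Protein folding genes of the endoplasmic reticulum were lower in 15 of 17 cases, with a median of -0.37. Over all tested genes 51% were lower and 49% higher, and each list in this paragraph is to be read beside those shares. The disulfide isomerases PDIA6 (108 CPM in 13cRA+doxazosin cells and 194 CPM in doxazosin cells) and PDIA4 (100.5 and 149.7 CPM), the cochaperone DNAJC3 (34.2 and 55.1 CPM) and the stress factor XBP1 (45.2 and 69.9 CPM) were examples. The score had medians of 2.39 and 2.77, and 23.0% (18.1 to 28.4) of 13cRA+doxazosin cells lay above the doxazosin median. ATF4 stress genes were lower in 10 of 13 cases, with a median of -0.25, such as the serine synthesis enzymes PSAT1 (135 and 203 CPM) and PHGDH (121 and 169 CPM). Cholesterol synthesis genes were lower in 14 of 20 cases, with HMGCS1 at 158 and 230 CPM. Cytosolic ribosomal protein genes were higher in 39 of 40 cases, but by a median of only 0.16, and in 31 of 40 cases with a median of 0.06 under DESeq2 size factors, which shifted all tested genes to a median of -0.10. Oxidative phosphorylation genes, higher in 23 of 31 cases with a median of 0.10, were evenly divided under that scaling (16 and 15). The 13 mitochondrially encoded mRNAs were lower in 11 cases but by a median of only -0.05, and in 8 cases without the 4 combination cells of over 9000 genes.

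**Figure D4:**
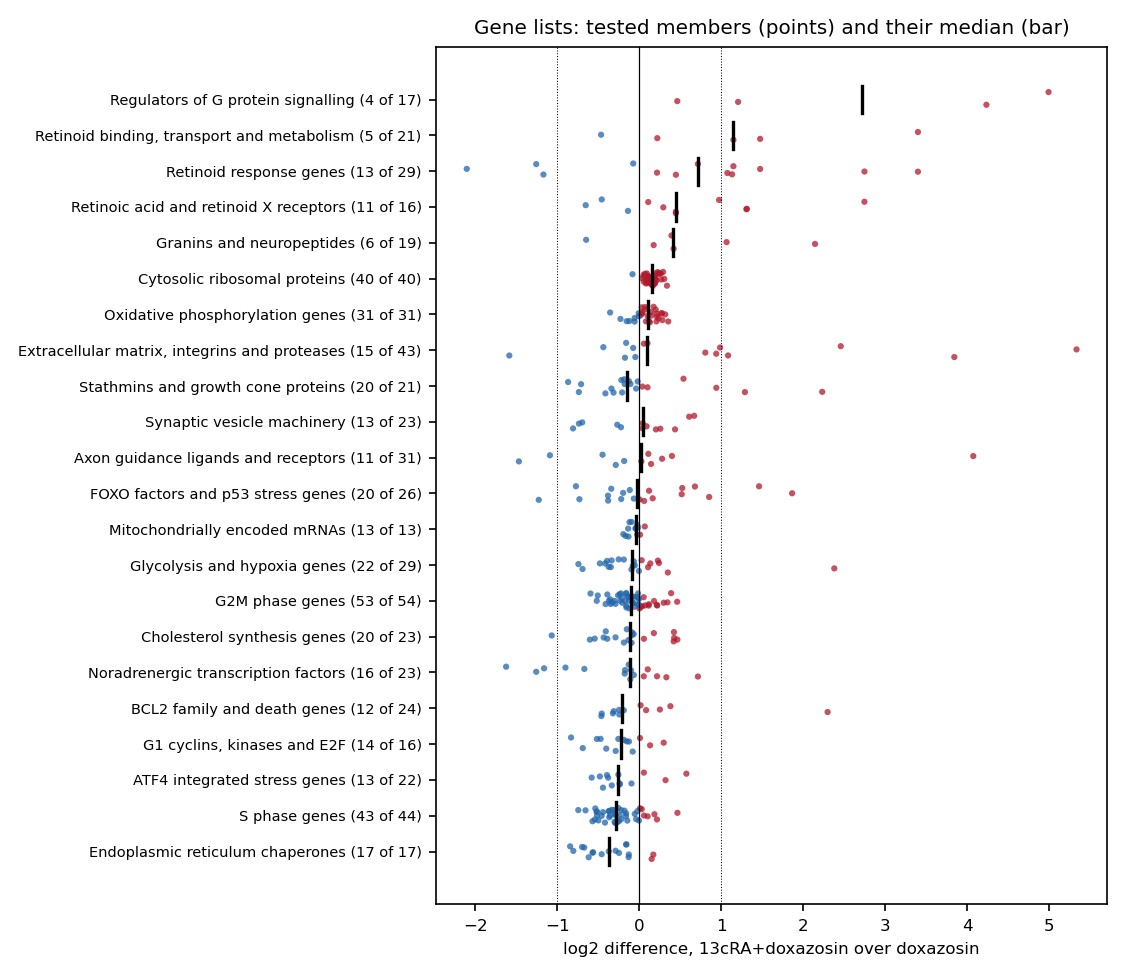
Points are the tested members of each gene list (tested of all members in brackets) by log2 difference of 13cRA+doxazosin over doxazosin, red above 0 and blue below it, and black bars are list medians; vertical spread within a row has no meaning. The retinoid response list has members on both sides of 0 and a median of 0.72, the top row holds 3 of 4 members that passed the minimum through the combination alone, and the S phase and chaperone lists sit to the left with medians of -0.29 and -0.37.

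Genes of other signalling and metabolic lists differed singly. SKIL, a repressor of SMAD signals, was at 142 CPM in 13cRA+doxazosin cells and 50.9 CPM in doxazosin cells. DUSP6, the phosphatase that switches off ERK, was at 20.8 and 2.27 CPM, but 1 cell held 55.5% of its combination counts, and its level without that cell was 9.32 CPM. The BMP targets ID1 (35.3 and 71.4 CPM) and ID2 (144 and 231 CPM) were lower. Of the 13 tested BMP, TGF-beta and ID genes, 6 were higher and 7 lower. EGLN3, a prolyl hydroxylase that marks HIF for degradation, was at 19.9 and 3.01 CPM. Of 22 tested glycolysis and hypoxia genes, however, 15 were lower, beside 51% lower over all tested genes. The neuronal enolase ENO2 was among the 15, at 39.2 and 66.2 CPM. SAT1, which acetylates polyamines for export, was at 21.1 and 6.48 CPM. The Notch-related HES6 was at 11.8 and 25.9 CPM, and KCNH2, a potassium channel that doxazosin blocks, at 15.1 and 36.4 CPM. For KCNH2 1 doxazosin cell held 38.9% of the counts, and the log2 difference without such cells was -0.71 in place of -1.22. Axon guidance genes were divided, with 6 of 11 tested members higher. The 13 tested synaptic vesicle genes held none past 2-fold, and 8 were higher. Members of the interferon and MHC class I list (4 of 5 tested higher) and of the lysosome list (6 of 13 higher) also stayed within 2-fold.

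Regulators of survival differed one by one and not as a group. BMF, a BH3-only protein that promotes apoptosis, was at 17.3 CPM in 13cRA+doxazosin cells and 2.73 CPM in doxazosin cells. FOXO3, a transcription factor of stress and cell cycle exit, was at 65.0 and 17.1 CPM and was counted in 57.0% (50.9 to 63.0) and 26.0% (20.5 to 32.1) of cells. TP53INP1, a p53-inducible stress gene, was at 66.8 and 23.6 CPM and GADD45A at 36.1 and 19.6 CPM. These were picked from a divided list. Of 20 tested FOXO and p53 stress genes, 10 were higher and 10 lower, with a median of -0.03, and 3 of the 20 passed the CPM minimum through the doxazosin library alone. The survival factors MCL1 (78.1 and 97.1 CPM) and BCL2L1 (16.3 and 22.8 CPM) were lower, as was the proapoptotic BID (129 and 178 CPM). Of 12 tested BCL2 family and death genes, 5 were higher and 7 lower.

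Several of the 15 lowest genes encode matrix or synaptic proteins. ADAMTS5, a protease that cleaves aggrecan, was at 14.2 CPM in 13cRA+doxazosin cells (13.3 to 15.1) and 66.7 CPM in doxazosin cells (64.4 to 69.1), a log2 difference of -2.16. STC1, the secreted hormone stanniocalcin, was at 53 and 227 CPM. MFAP4, a microfibril-associated matrix protein, was the most abundant of the 15 at 266 and 799.9 CPM, and its median cell had 218 CPM in 13cRA+doxazosin and 745 CPM in doxazosin. The naming rule also required the share of cells to be lower. For these 3 genes the shares were 21.5% and 63.8% (ADAMTS5), 49.3% and 85.1% (STC1), and 89.3% and 97.5% (MFAP4). HTR3A, a subunit of the serotonin-gated ion channel, was at 11.5 and 46.5 CPM, and RIMS3, an active zone protein of synapses, at 7.55 and 25.8 CPM. The neurexin-related adhesion protein CNTNAP2 had 20.2 and 60.7 CPM. MBNL3, a splicing regulator, was at 13.6 and 47.9 CPM, SORBS2, a cytoskeletal adaptor, at 13.3 and 43.5 CPM, PPP2R2B, a regulatory subunit of protein phosphatase 2A, at 7.4 and 24.7 CPM, and SMCO4 at 7.91 and 26.2 CPM. The remaining 4 (DIPK2A, ARL10, RINT1 and PNMA8A) had shares of cells whose intervals overlap, and 1 doxazosin cell held 33.1% to 65.0% of the counts of each. Without such cells the log2 differences of PNMA8A and ARL10 were -0.80 and -0.33, no longer 2-fold. RINT1 had 20.8 CPM in 13cRA+doxazosin cells and 62.5 CPM in doxazosin cells, beside 8.97 CPM in 13cRA cells and 25.5 CPM in DMSO cells, and ARL10 had 15.3 CPM and 46.5 CPM with doxazosin and 26.3 CPM and 19.7 CPM without it.

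The same addition could be read without doxazosin, as 13cRA over DMSO, from 2 libraries that the first comparison does not use. Of the 227 genes at least 2-fold higher with doxazosin present, 198 were higher without it and 129 were at least 2-fold higher, beside 45.8% and 3.82% of all 8061 tested genes, with medians of 1.47 and 1.15. Of the 138 genes at least 2-fold lower with doxazosin, 100 were lower without it and 38 at least 2-fold lower, beside 54.2% and 3.13% of all tested genes, with medians of -1.26 and -0.47. Selection on the first comparison favours larger values there. Over the 6711 genes with at least 20 CPM in any library, 63.5% had the same sign in both, Pearson's r was 0.55 and Spearman's rho 0.39; these are descriptions across genes, which are not independent replicates, and the libraries of each pair differ in depth. Among the 15 highest genes, some had like differences with and without doxazosin and others did not. ENPP2 differed by 7.54 with doxazosin and 7.43 without it, CCBE1 by 5.33 and 5.66, and SLIT2 by 4.07 and 4.09. RGS16 differed by 4.23 with doxazosin and 5.78 without it, CCN3 by 3.84 and 4.74, NR0B1 by 3.58 and 4.60, and PRKCH by 4.22 and 2.63. The receptor RARB differed by 2.75 and 3.44. The 13cRA library was the shallowest, with 22636509 counts and a median of 13.2% mitochondrial counts, against 48164169 counts and 10.6% in DMSO. Beside that, the mitochondrially encoded list had a median of 0.65 without doxazosin and -0.05 with it, and the S phase list -0.63 and -0.29. Whether depth or RNA quality contributes to those differences was not tested.

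**Figure D5:**
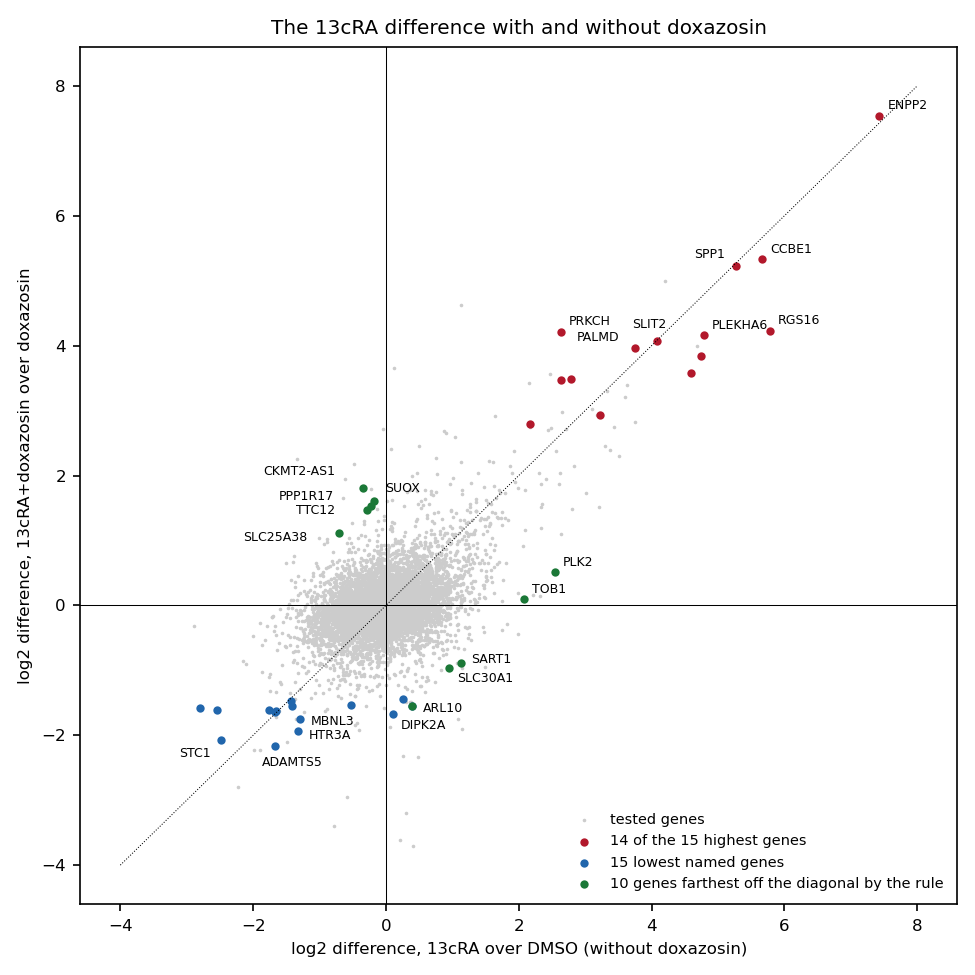
Each gray point is a tested gene, with the log2 difference of 13cRA over DMSO on the horizontal axis and of 13cRA+doxazosin over doxazosin on the vertical axis; the dotted line marks equal differences. The higher genes drawn (red) lie on both sides of the line, from 2.17 to 7.43 across and 2.79 to 7.54 up, and the 10 genes named for their distance from it are green, ARL10 among them, which is also 1 of the 15 lowest (blue).

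Among the genes that met the naming rule, those farthest from the equal-difference line went in both directions. Some tested genes outside the rule lay farther, such as PLCG2 at 4.63 with doxazosin and 1.13 without it. PLK2, a polo-like kinase, was at 31.4 CPM in 13cRA+doxazosin cells and 21.6 CPM in doxazosin cells, a log2 difference of 0.52, but at 49.0 CPM in 13cRA cells and 7.60 CPM in DMSO cells, a difference of 2.54. In doxazosin 1 cell held 41.7% of its counts, and without the cell of most counts in each library the difference with doxazosin was 1.15. TOB1, an antiproliferative protein, was at 20.9 and 19.5 CPM with doxazosin and at 28.6 and 6.00 CPM without it. For TOB1 1 doxazosin cell held 48.2% of the counts, and without such cells the difference with doxazosin was 0.74 in place of 0.09. SUOX, the mitochondrial sulfite oxidase, was at 25.1 and 7.54 CPM with doxazosin, and at 12.9 CPM in 13cRA cells and 14.7 CPM in DMSO cells. PPP1R17, a phosphatase inhibitor, was at 31.6 and 10.3 CPM with doxazosin and at 12.5 and 14.8 CPM without it. TTC12, a tetratricopeptide protein, was at 21.6 and 7.17 CPM with doxazosin and at 7.95 and 9.90 CPM without it. The negative departures beside PLK2, TOB1 and ARL10 were the zinc exporter SLC30A1, at 19.3 and 38.6 CPM with doxazosin and 41.1 and 20.8 CPM without it, and the splicing factor SART1, at 15.7 and 29.8 CPM and at 26.3 and 11.5 CPM. For SLC30A1 1 cell held 31.9% of the 13cRA counts. Without the cell of most counts in each library its differences were -0.85 with doxazosin and 0.51 without it. In doxazosin the cell of most counts held 49.4% of the SART1 counts and 65.0% of those of ARL10, and without such cells their differences with doxazosin were -0.28 and -0.33, in place of -0.89 and -1.55. The other 2 positive departures were carried largely by 1 cell each. The antisense transcript CKMT2-AS1 was at 46.0 and 12.4 CPM, but 57.1% of its combination counts came from 1 cell, and 1 cell held 50.3% of those of the mitochondrial glycine carrier SLC25A38, at 72.6 and 33.0 CPM. Without the 4 combination cells of over 9000 genes their log2 differences were 0.67 and 0.18, in place of 1.81 and 1.12.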

How the data were processed

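Per the labels' protocols, CHP134 suspensions of the 4 treatments went onto 1 ICELL8 chip for full-length cDNA libraries, which carry no molecular identifiers. The table deposited by the authors gives raw read counts, as whole numbers, of 60651 gene IDs in 1287 cells. Builds named in the submitters' processing notes, without a role, are GRCh37 and GRCh38.p13; tools named there are Seurat 4.3.0, featureCounts, STAR 2.7.8a, fastp 0.23.3 and bcl2fastq. Annotation release, strandedness and treatment of shared reads: not given in the sources used here. Hence antisense genes and paralogs (CKMT2-AS1, KCNQ1OT1, HSPA1B) are uncertain.

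For each library, counts were added up over kept cells and scaled to CPM. Differences are log2((CPM + 1)/(CPM + 1)), which understates the change of scarce genes. A symbol was found for 42061 IDs and not for 18590. The IDs without a symbol, and 784 IDs with counts and a repeated symbol, counted in the library totals but were not among the tested genes. Thinning drew 34000 counts per cell and left out 17 13cRA+doxazosin cells and 4 doxazosin cells. Cell names are serial numbers without barcodes, so barcodes shared between libraries were not analysed here. Doublets were not called, because imaging had chosen wells with single cells. Whether any of the 4 combination cells of over 9000 genes held more than 1 cell was not tested. Named genes had at least 20 CPM in 1 of the 2 libraries, a count in at least 20% of thinned cells of 1 of them, and the same direction in summed CPM, mean per-cell CPM and share of cells; the 15 highest and 15 lowest, the 5 highest and 5 lowest departures from the difference without doxazosin, up to 6 members per list, and a fixed set of retinoid, cell cycle and lineage genes were open for naming. Members and lists were chosen with earlier results of these data known. Gene positions come from GENCODE 29 on GRCh38, which is not known to be the annotation behind the counts. Alternatives used TMM factors (edgeR 4.0.16), DESeq2 1.42.0 size factors, other cell and gene filters and a pseudocount of 5 CPM, in R 4.3.3 and Python 3.11.15. The summing, scaling, log2 differences and intervals were tested on simulated data, and the gene lists were not. Intervals are at 95%. Values of some genes are not reported here.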

Additional observations from a re-analysis of the deposited data

Results flagged for a closer look

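The genes listed here had log2 differences of opposite sign with and without doxazosin, each of at least 1.5-fold, between single libraries, and the contrast between the 2 differences was not tested. Only genes open for naming were searched, so other tested genes can meet the same rule. LINC00654 did, at 2.25 with doxazosin and -1.35 without it. With doxazosin (13cRA+doxazosin over doxazosin) and without it (13cRA over DMSO), the mitochondrial glycine carrier SLC25A38 differed by 1.12 and -0.71. The heat shock gene HSPA1B differed by -0.67 and 1.17. The stress gene SESN1 differed by -0.73 and 0.72, and the vesicle protein SYT11 by -0.74 and 0.70. The splicing factor SART1 differed by -0.89 and 1.13, and the zinc transporter SLC30A1 by -0.96 and 0.95. The growth factor TGFB3 differed by -1.10 and 0.61. The noncoding RNA MEG3 differed by -1.33 and 0.59. The cell of most counts of a gene held 50.3% of the combination counts of SLC25A38, and in doxazosin 58.0% for SESN1, 41.5% for SYT11, 49.4% for SART1 and 42.0% for TGFB3. For MEG3 it held 45.9% of the 13cRA counts, and the difference without doxazosin was -0.02 without it. For SLC30A1 it held 31.9% of the 13cRA counts, and with such cells left out the difference without doxazosin was 0.51, under 1.5-fold. With the cell of most counts left out in each library, the differences with doxazosin were 0.22 for SLC25A38, -0.34 for HSPA1B, -0.08 for SESN1, -0.06 for SYT11, -0.28 for SART1 and -0.60 for TGFB3.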

How the results depend on the processing

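Each treatment is 1 library, so the values show how these libraries differ, and leaving out a replicate was not possible. No paired analysis was possible because there is 1 library per treatment and the labels carry no replicate numbers. Under the 9 alternatives of scaling, cell weight, pseudocount and cell filter, the 15 highest genes kept their sign and a difference of at least 2-fold (lowest 1.90), and the 15 lowest kept their sign, 13 of them at least 2-fold (closest to 0, PNMA8A at -0.70). The naming rule had already required the same sign in mean per-cell CPM, 1 of the 9, and took the largest differences. The kept signs were therefore in part set by the choice of genes. The count of genes at least 2-fold lower, 138, was 81 with the mean of per-cell CPM, 81 with thinned sums, 61 with a pseudocount of 5 CPM, 67 without each gene's cell of most counts (an alternative chosen after seeing the data), 70 with a 20 CPM minimum and 347 with no minimum. The count at least 2-fold higher, 227, was 137 with a 20 CPM minimum, 615 with no minimum, 137 without the cell of most counts and 99 with a 10 CPM minimum in DMSO. DESeq2 size factors gave list medians of -0.38 for S phase, -0.20 for G2M, 0.00797 for oxidative phosphorylation and 0.062 for ribosomal proteins; the ribosomal median was 0.12 with TMM factors and 0.11 with no cell filter, and that of oxidative phosphorylation 0.012 with the mean of per-cell CPM. The mitochondrially encoded list reversed with no cell filter, to 0.32; that setting keeps cells of high mitochondrial share. Other causes were not tested. At these depths a gene with no count could be at up to 0.0416 CPM in 13cRA+doxazosin cells and 0.065 CPM in doxazosin cells.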

Other observations

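A number of the genes with large differences are neighbours on the chromosome, a pattern chosen after their values were seen. RGS16 and RGS8 lie 37.4 kb apart on chromosome 1 (182598623 to 182604408 and 182641816 to 182684576, GENCODE 29 on GRCh38) and differed by 4.23 and 4.99 between 13cRA+doxazosin and doxazosin cells; 1 cell held 57.9% of the RGS8 counts of the combination, and the RGS8 difference without it was 3.90. CCN3 and ENPP2 lie 133 kb apart on chromosome 8 and differed by 3.84 and 7.54. On chromosome 14, DLK1 and the maternally expressed noncoding RNA MEG3 lie 41.2 kb apart in an imprinted domain and differed by -2.10 and -1.33 with doxazosin, but by -1.50 and 0.59 without it; the MEG3 value without doxazosin was -0.02 when the cell of most counts was left out of each library. Of the 225 genes at least 2-fold higher that had a non-overlapping tested neighbour, 28 (12.4%) had one that was also at least 2-fold higher, beside 5.19% of all 7934 tested genes with such a neighbour. Of 137 genes at least 2-fold lower, 14 (10.2%) had a neighbour that was lower too, beside 3.26% of all. Reads shared between adjacent genes could not be checked.

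The 4 combination cells with over 9000 detected genes held 9482 to 18592 genes and 3.47% of the summed counts of the library, and no doxazosin cell passed 7662 genes. Without them 180 genes were at least 2-fold higher, of which 165 were among the 227 (72.7% of those, 91.7% of the 180). The overlap was smaller with the mean of per-cell CPM. Under that measure 134 of the 227 higher genes (59%) and 61 of the 138 lower genes (44.2%) were again at least 2-fold apart.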
